A study of Homo sapiens with 6 samples.

Results

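The untreated state of HT-29 cells was described from 3 control arrays, out of 6 arrays in the study, over 19775 genes. HT-29 is an established human cell line from a colorectal adenocarcinoma, grown here without a knockout, transgene or other added allele. The control cultures received the solvent alone, water mixed with acetate, so that untreated here means solvent-treated. The methods give 72 h in FCS-free medium for the treated cultures and do not state the control medium separately. Total RNA was hybridized to HGU133 Plus 2.0 arrays, short-oligonucleotide arrays that cover most human genes with 1 or more sets of probes. The other 3 arrays hold cells that were given 5-Aza, an inhibitor of DNA methylation, and enter no comparison below. The labels give 3 µg of total RNA an array. No source used here tells whether separate cultures were behind the 3 control arrays, so the spread between them may be technical. Members were all genes with a probe set that carries a single gene symbol, and where a gene had several, the one with the highest mean over the control arrays stood for it. Probe sets whose name ends in _x_at, which can bind transcripts of related genes, served only genes that lacked any other.

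The lining of the colon is renewed from stem cells at the base of the crypts, which are kept dividing by Wnt signals. Their descendants become absorptive colonocytes, which take up water, salts and short-chain fatty acids, or secretory cells, namely mucus-producing goblet cells, hormone-producing enteroendocrine cells and chemosensory tuft cells, while Paneth cells belong to the small intestine. Colon cancer lines keep parts of these programmes to different degrees, and HT-29 is known for its ability to differentiate along both the absorptive and the mucus-secreting branch when culture conditions are changed.

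Signals are linear and in arbitrary units, and probe sets differ in how well they bind their target, so the order of signals is not an order of transcript amounts. In a bulk sample, fewer cells with a transcript and less of it in each cell cannot be told apart. The background level was set at 42.0, the highest signal of the TrpnX controls, probe sets for a bacterial transcript, on any control array. It came from control replicate 3, as the highest TrpnX signals on control replicates 1, 2 and 3 were 23.8, 33.5 and 42.0. Against the own TrpnX value of each array, 75.8%, 72.3% and 69.6% of genes were above background. The mean control signal reached 42.0 for 13256 of 19775 genes (67.0%), and on all 3 arrays for 11997 (60.7%). It reached 10 times that level for 8279 genes (41.9%) and 100 times that level for 1315 (6.65%). Genes are called at background under 42.0, weak up to 10 times that level, moderate up to 100 times and strong from there on, which gave 6519, 4977, 6964 and 1315 genes. Strong genes held 53.8% of the summed signal and moderate genes 42.5%. The number of strong genes was 658 when _s_at and _x_at probe sets, which can bind several transcripts or genes, were left out. Genes with no other kind of probe set then dropped out of the count, whatever their signal. The gene in the middle of the order had a signal of 196 and the highest, RPS23, a ribosomal protein gene, had 56084. For genes above background the median coefficient of variation (CV) over the 3 arrays was 13.6%. In the text below, 3 values of a gene stand in the order of control replicates 1, 2 and 3, and an error is the SD over these 3 arrays.

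**Figure D1:**
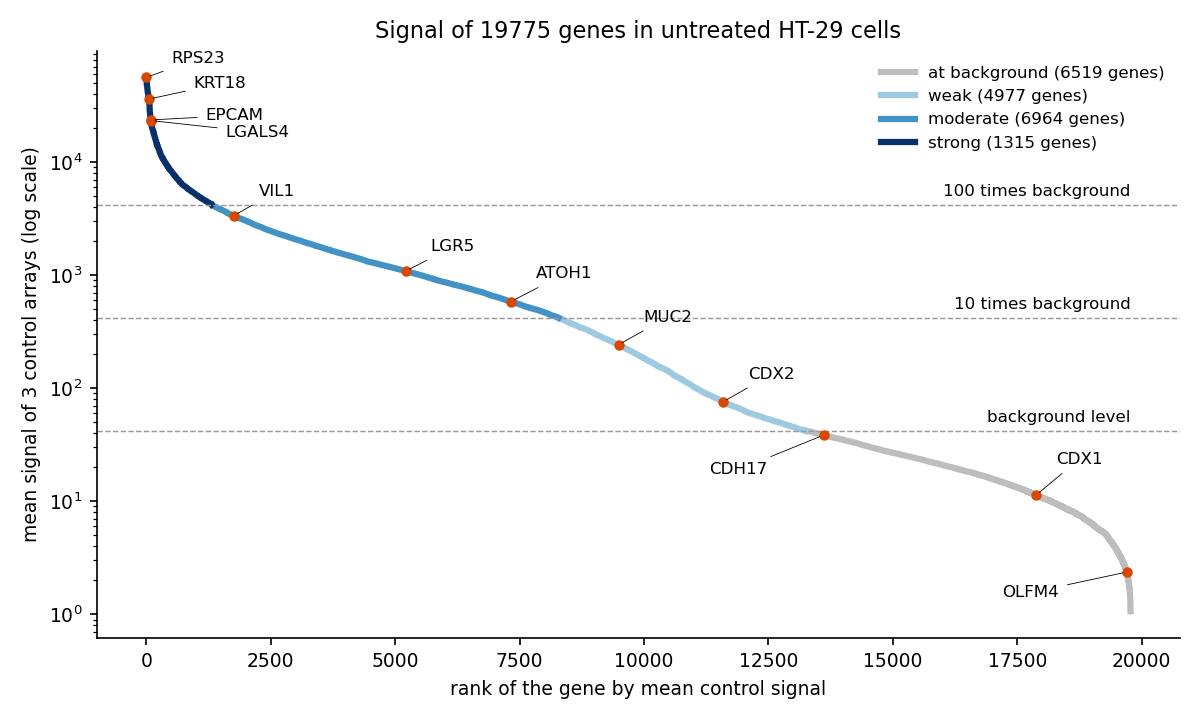
Mean signal of the 3 control arrays (log scale) against the rank of each of 19775 genes, coloured by signal class, with dashed lines at the background level of 42.0 and at 10 and 100 times that level. Labelled points are single genes: the colon epithelial genes KRT18, EPCAM and LGALS4 lie near the top of the curve, and CDX2 and CDH17 lie near the background line.

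The limits between the classes cut through a continuous range. Just under the background level lay the olfactory receptor gene OR2H2 (25.4, 68.8 and 31.8) and ATP6V0D2, a proton pump subunit (23.4, 76.5 and 26.0). Just over it lay ZNF141, a zinc finger gene (54.1, 38.7 and 33.4), and SRRM5 (26.0, 36.2 and 63.8). In each of these genes the 3 arrays lay on both sides of the level, as they did for 3236 genes (16.4%) in all. At 100 times background, RNF43, a ubiquitin ligase that removes Wnt receptors, fell just below the limit with a mean of 4198, and NDRG3 just above it with 4213. Of 10523 genes with more than 1 probe set, 3568 (33.9%) had probe sets on both sides of the background level.

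Control replicate 2 stood apart from the other control arrays. Among the 8279 genes at or over 10 times background, it lay at least 2-fold above both others for 24 genes (0.290%) and at least 2-fold below both for 34 (0.411%), whereas control replicate 1 did so for 0 genes in either direction and control replicate 3 for 1 and 3. The log2 signals of these genes correlated at 0.985 between control replicates 1 and 3, at 0.971 between 1 and 2, and at 0.967 between 2 and 3. The control probe set at the 3' end of 18S ribosomal RNA read 16743.7, 6359.1 and 14934.1. The middle set read 2849.0, 1191.1 and 1032.0, lowest on control replicate 3, and the 5' set 4491.7, 1165.9 and 1424.9. The log2 ratio of 3' to 5' probe sets of ACTB, a measure of RNA integrity, was 0.46, 0.57 and 0.60. Control replicate 3 in turn had the lowest maximum (46175, against 58823 and 64167) and the lowest spiked-in hybridization controls, with a mean of 5826 against 9872 and 10669.9. Without control replicate 2, 13384 genes were above background, 1302 were over 100 times that level, and 97 of the 100 highest genes stayed among the first 100. The genes that set replicate 2 apart are described further below, and each marker group is given with its values on all 3 arrays where that array mattered.

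The highest signals belonged to the protein synthesis machinery and to the mitochondrial genome. RPS23 was followed by COX2 and COX1, the mitochondrially encoded subunits of cytochrome c oxidase, at 55057 ± 9181 and 54543 ± 9024, and by RPS19 at 53853 ± 9236. Cytosolic ribosomal proteins made up 22 of the 30 genes with the highest signal and 44 of the highest 100. They were counted by gene name, without FAU at rank 59, which is described below. Other genes among the first 30 were TPT1, translationally controlled tumour protein, at 48356, TMSB10, an actin-binding thymosin, at 48095, the mitochondrial ATP6, ND4 and ND2, and ACTB, cytoplasmic actin, at 43320.5. All 30 were highest on control replicate 2 and lowest on control replicate 3, as were 84 of the first 100. In RPS23 the arrays read 58823, 63254 and 46175. Each of the 99 pairs of neighbours among the first 100 genes differed by less than the larger of their SDs, so no order within a few places is given by these arrays, although 88 of the 100 were among the first 100 on every array. The choice of probe set weighed more. With the median over all probe sets of a gene, 75 of the 100 stayed among the first 100. Without _s_at and _x_at probe sets 34 did, but genes with no other kind of probe set dropped out of that order.

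Below the ribosomal proteins, genes for iron storage, glycolysis and epithelial structure came next. Leaving out genes of translation (names starting with RPL, RPS, EEF or EIF), the 30 highest included S100A6 and S100A10, calcium-binding proteins of the S100 family, at 40231 ± 6824 and 35141 ± 6808. HSPD1, the mitochondrial chaperonin, had 37411 ± 3965 and FTL, the ferritin light chain, 36785 ± 5499. The glycolytic GAPDH had 36564, and LDHB and LDHA, the subunits of lactate dehydrogenase, had 34041 and 30644. Genes of epithelial character stood among these 30 as well, namely KRT18, a keratin of simple epithelia, at 36086 ± 6746, TSPAN8, a tetraspanin abundant in gut tumours, at 32799.9 ± 4388, and AGR2, a protein disulphide isomerase needed for mucin assembly, at 27509 ± 3678. KRT18 was read by an _x_at probe set, so its signal may include transcripts of related genes, and the same holds for FTH1P5, a pseudogene of the ferritin heavy chain, at 30147.

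The start of a ribosomal protein transcript is known to carry a 5' terminal pyrimidine tract, a C followed by further C or T bases, through which its translation is tied to growth signals. This was looked for in the RefSeq promoter windows of GRCh38.p14, which run from 250 bases before the annotated start to 50 after it, for the 11460 genes that have a single such window. A C at the start followed by at least 4 C or T was found for 32 of 44 cytosolic ribosomal protein genes (72.7%). The share over all genes was 4.49%, and it was 3.10%, 3.77%, 4.56% and 13.4% from the genes at background to the strong genes. Among strong genes outside the list of ribosomal protein genes, FAU among them, it was 10.4%. The starts of the highest ribosomal protein genes with such a tract are shown because they head the whole signal order, with 10 bases before the start and 20 from it on, the strand of the gene, and the tract in capitals.
RPS23 (chr5:82278335-82278364, minus strand): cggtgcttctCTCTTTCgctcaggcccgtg
RPL39 (chrX:119791611-119791640, minus strand): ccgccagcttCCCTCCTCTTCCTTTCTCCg
RPL37A (chr2:216498834-216498863, plus strand): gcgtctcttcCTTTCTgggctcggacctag
RPS16 (chr19:39435930-39435959, minus strand): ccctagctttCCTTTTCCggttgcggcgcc
RPS10 (chr6:34426050-34426079, minus strand): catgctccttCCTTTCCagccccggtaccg
RPLP1 (chr15:69452808-69452837, plus strand): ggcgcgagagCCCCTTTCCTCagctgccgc

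The tract ran over 19 bases in RPL39 and over 6 in RPL37A. RPS4X at rank 10 and RPL10A at rank 21 had none at the annotated start and are shown for contrast. The list of ribosomal protein genes did not hold FAU. Outside that list, the highest genes with such a tract were TPT1 at rank 9 and EEF2 at rank 48. EEF2 moves the ribosome along the transcript. FAU followed at rank 59 and encodes a ribosomal protein fused to a ubiquitin-like protein.
RPS4X (chrX:72277229-72277258, minus strand): ctccagccccaatttctacgcgcaccggaa
RPL10A (chr6:35468391-35468420, plus strand): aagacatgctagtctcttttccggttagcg
TPT1 (chr13:45341164-45341193, minus strand): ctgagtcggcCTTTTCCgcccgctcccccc
EEF2 (chr19:3985444-3985473, minus strand): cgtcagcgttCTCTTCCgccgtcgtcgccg
FAU (chr11:65122115-65122144, minus strand): tcgcttcttcCTCTTTCTCgactccatctt

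The labelled tissue was checked against 36 colon epithelial genes, of which 34 were measured. They included 30 above background (88.2%, all genes 67.0%) and 13 over 100 times background, with a median signal of 2905 against 196 over all genes. Of the 6 defining markers, EPCAM, an epithelial adhesion molecule, read 25742, 25078 and 19976, and LGALS4, a galectin of the gut lining, read 23285, 24271 and 22309. KRT20, a keratin of differentiated gut epithelium, read 8226, 7970.4 and 6434, and VIL1, the microvillus protein villin, read 3241, 2807 and 4014. All 4 lay far over background on every array. The other 2 did not. CDX2, the transcription factor that specifies intestine, read 62.1, 83.9 and 81.4, which is 1.80 times background at its mean, and its second probe set read 69.8, 20.7 and 3.5. CDH17, an intestinal cadherin, read 46.2, 9.3 and 59.9, with 2 arrays just over and 1 under the level. The regulator CDX1, a relative of CDX2, read 7.6, 13.7 and 12.7 and the surface antigen GPA33 47.9, 64.6 and 27.4. Weak members also included the brush border genes CDHR5 (122), CDHR2 (94.7) and MYO1A (64.3).

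Other members of the colon list included further keratins and transport proteins. KRT8, the partner of KRT18, had 21322 ± 2701, KRT19 had 10284 ± 3616 and CDH1, E-cadherin, had 10214 ± 624. FABP1, a fatty acid-binding protein of enterocytes, was moderate at 889.4, 1449.9 and 899.0. PHGR1, a small protein of colon epithelium, read 20.3, 59.6 and 34.7 and had a mean under the background level, and PIGR, the receptor that carries IgA across the epithelium, was weak.

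**Figure D2:**
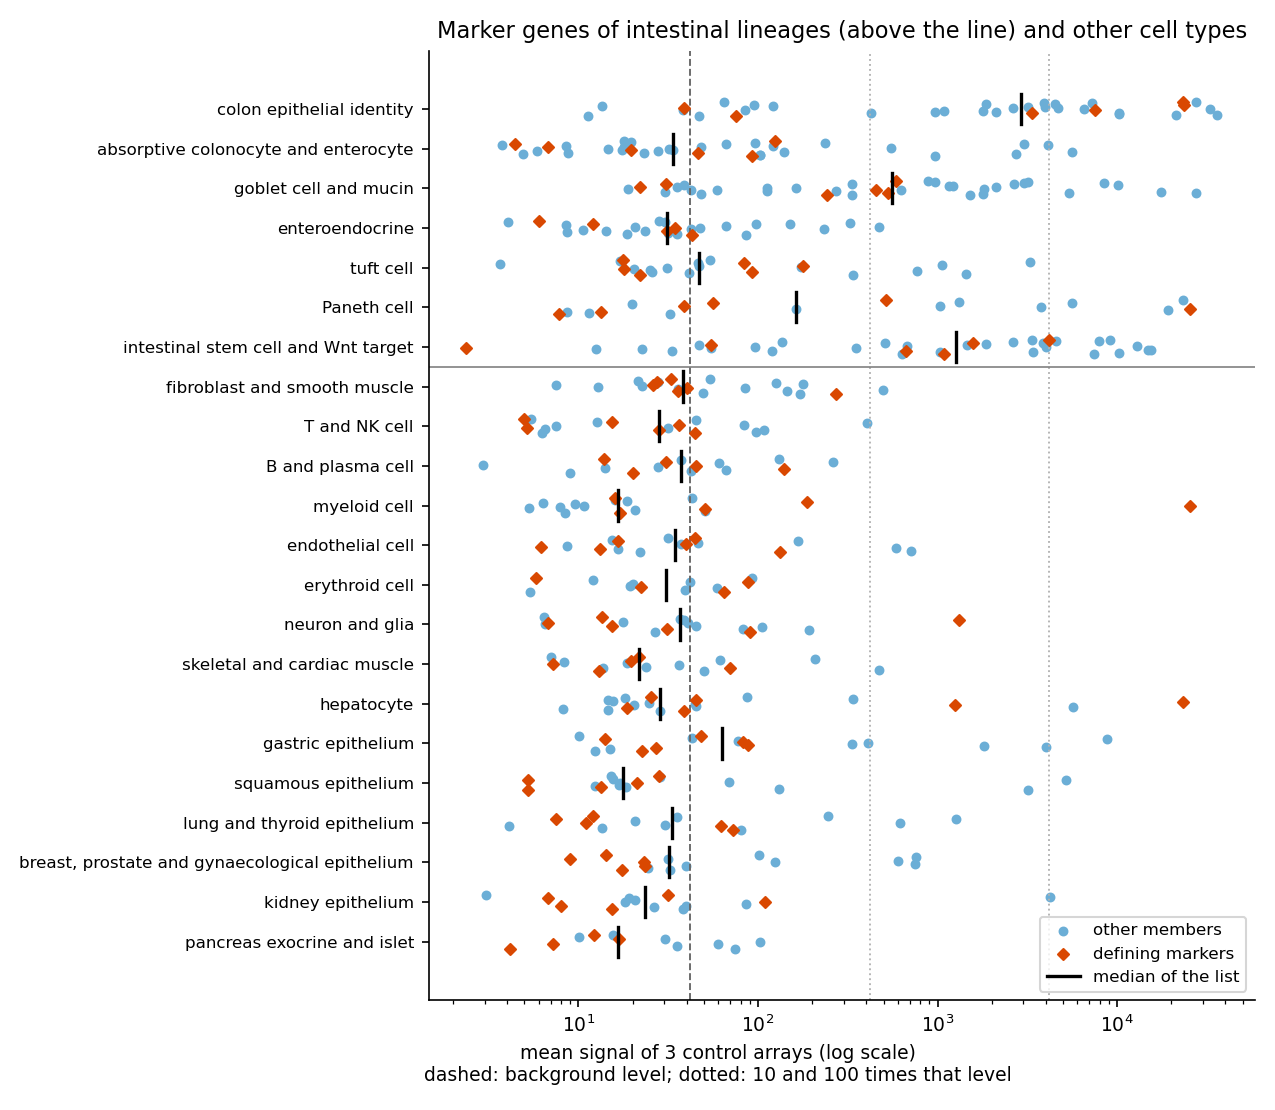
Mean signal of the 3 control arrays (log scale) for every measured member of 7 intestinal lists (above the line) and 15 lists of other cell types. Diamonds are defining markers, circles other members and black bars the list medians. The medians of the colon, goblet, tuft, Paneth and stem cell lists lie above the background level (dashed), and of the lists of other cell types only the gastric list has its median above that level.

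Genes of mature absorptive cells were mostly at or near background. Of 35 measured genes 17 were above background (48.6%, all genes 67.0%), 6 over 10 times and 1 over 100 times, and the median was 33.7. Among the defining markers, AQP8, a water channel of surface colonocytes, read 6.3, 6.8 and 7.3, MS4A12, a colonocyte calcium regulator, read 5.4, 5.0 and 2.9, and SLC26A3, the chloride-bicarbonate exchanger, read 13.6, 2.8 and 42.2. These 3 had means under the background level. CA1, a carbonic anhydrase, and GUCA2A, the peptide guanylin, were weak at 92.6 and 124, and CA4, another carbonic anhydrase, read 20.8, 42.5 and 75.7. The highest genes of the list were DPP4, a brush border peptidase, at 5632 ± 1189, HSD17B2, a steroid dehydrogenase, at 4141 ± 650.2, SLC4A4, a bicarbonate cotransporter, at 3048 ± 149.8 and CEACAM1, an adhesion molecule, at 2722 ± 504. The lipoprotein and disaccharidase genes of the small intestine, such as APOA1 at 5.90, FABP2 at 31.8 and SI at 23.3, were at background.

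Goblet cell genes ranged from strong to background. Of 36 measured genes 30 were above background (83.3%, all genes 67.0%) and 5 strong, with a median of 558. AGR2 was the highest, and REG4, a secreted lectin, read 20936, 9644 and 22075, GCNT3, which builds core structures of mucin sugars, 9278, 12909 and 8216 and KLF4, a transcription factor of goblet cell maturation, 10579, 6343 and 8402. Among mucins, MUC13 (2476, 1791 and 2118) and MUC5AC, normally a gastric mucin, (1633, 1659 and 2135) were moderate. MUC2, the main secreted mucin of the colon, was weak at 292.5, 50.2 and 385.8, and MUC5B was at background with a mean of 18.9. TFF3, the trefoil peptide released with MUC2, read 1739, 1123 and 2488.

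Several secretory genes were lowest on control replicate 2. In addition to MUC2, the goblet cell transcription factor ATOH1 read 801.3, 200.3 and 750.0, SPINK4, a protease inhibitor, 516.4, 211.5 and 870.6, and FCGBP, a protein that crosslinks the mucus gel, 538.2, 99.9 and 727.8. All 4 of these defining markers were lowest on that array, whereas the remaining defining markers, CLCA1 (6.9, 54.0 and 5.5) and ZG16 (8.0, 29.9 and 54.8), had means under the background level. Over the list, 15 of the 30 members above background were lowest on control replicate 2 and 10 highest, against 5070 lowest and 4712 highest of all 13256 genes above background, and the list median was 527, 342 and 736. Without that array 29 members were above background.

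Paneth cell genes ranged as widely, and 3 of their 6 defining markers were above background. Of 17 measured genes, 10 were above background (58.8%, all genes 67.0%), 11 without control replicate 2, and 4 strong. LYZ, lysozyme, a defining marker and the highest of the list, read 26666, 29918 and 19666, SERPINA1, alpha-1-antitrypsin, 24915, 21746 and 23261 and SPINK1, a trypsin inhibitor, 18237, 21461 and 18251. The defining marker PRSS2, a trypsinogen, was moderate at 250.5, 828.6 and 461.9 and PLA2G2A, an antibacterial phospholipase, weak at 10.1, 66.4 and 92.8. PRSS2 had only _x_at probe sets, so its signal may include transcripts of related genes. The Paneth cell defensins DEFA5 and DEFA6 were at background on all 3 arrays, at means of 7.77 and 13.3, and the antimicrobial lectin REG3A had 38.6.

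Enteroendocrine genes were low, and most of those above background were higher on control replicates 1 and 3. Of 26 measured genes 10 were above background (38.5%, all genes 67.0%), 4 of these on all 3 arrays and 1 over 10 times background, with a median of 31.3. Of the 5 defining markers, CHGA, chromogranin A, was the highest at 36.2, 50.3 and 42.4. The hormone genes GCG (43.6, 16.4 and 43.1), PYY (6.2, 24.2 and 5.7) and SST (5.5, 7.9 and 4.6) had means under the background level. Transcription factors of the lineage differed, with ISL1 at 526.4, 379.9 and 509.6 and RFX6 at 386.7, 65.3 and 520.3, and NEUROG3, which commits cells to the lineage, at 103.6, 17.9 and 137.2. The factors NKX2-2, PAX4 and INSM1 had means of 66.2, 47.4 and 42.2, and PAX6 and FEV, at 20.7 and 4.03, were at background. Of the 10 members above background 8 were lowest on control replicate 2, and the median log2 ratio of that array to the mean of the others was -1.74. Without it 11 members were above background. SCG5, a chaperone of prohormone processing, read 287.0, 123.9 and 285.7.

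Tuft cell genes ranged from moderate to background. Of 22 measured genes 12 were above background (54.5%, all genes 67.0%), 11 without control replicate 2, with a median of 46.6. AZGP1, a lipid-mobilizing secreted protein, read 3123, 2898 and 3783, ALOX5, a leukotriene-forming enzyme, 1343, 1259.5 and 1740.1 and SUCNR1, the succinate receptor, 1246, 524.4 and 1402. The defining markers POU2F3, the master regulator of the lineage, and DCLK1 were at background at 7.2, 11.9 and 47.2 and 7.5, 20.8 and 25.4, while TRPM5, a taste-signalling channel, was weak at 78.1, 75.9 and 122.1.

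Stem cell and Wnt target genes were high as a group. Of 34 measured genes 30 were above background (88.2%, all genes 67.0%) and 8 strong, with a median of 1271. CD44, a hyaluronan receptor, read 14163, 18135 and 14132, the transcription factor MYC 15652, 16052 and 13079.7, SLC12A2, an ion cotransporter of crypt cells, 14239.5, 12494 and 12199 and the crypt transcription factor SOX9 9771, 10117 and 10900.2. By the probe set chosen for each gene, the defining markers RNF43, AXIN2, LGR5 and ASCL2 were over 10 times background on every array. AXIN2, a feedback inhibitor of the pathway, had 1577 ± 118, LGR5, the receptor that marks crypt base stem cells, 1086 ± 80.8 and ASCL2, a stem cell transcription factor, 667 ± 134. The other defining markers were SMOC2, a matrix protein, at 55.1, 29.1 and 80.2 and OLFM4, a secreted glycoprotein of crypt base cells, at 1.1, 1.2 and 4.8, which was among the lowest signals of the whole table. Other probe sets of these genes were lower. The second one of LGR5 read 265.1, 342.5 and 209.0, that of ASCL2 read 1.9, 1.9 and 3.9, and the other 3 of AXIN2 had means of 88.8, 205 and 305.

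Markers of other cell types were mostly at background or weak. In 15 such lists 231 genes were measured, 87 of them above background (37.7%, all genes 67.0%). Of the 231 genes, 20 were over 10 times background (8.66%, all genes 41.9%), and the median was 28.4. The 7 intestinal lists held 200 measured genes, with 135 above background (67.5%) and 82 over 10 times background (41.0%). Both shares lay close to those of all genes, and the median of 121 lay below the 196 of all genes. The lists of other cell types had 79 defining markers, 23 of them above background and 4 over 10 times background. These 4 were LYZ (listed for myeloid cells), SERPINA1 and TTR (hepatocytes) and MBP (glia). The leukocyte antigen PTPRC had a mean of 16.0, the T cell receptor chain CD3E 28.0, the endothelial cadherin CDH5 6.20, the matrix proteoglycan DCN 25.9 and albumin, ALB, 38.5. Each of these 5 had a mean under the background level, and collagen COL1A1 was weak at 227.7, 374.6 and 215.8.

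The markers over 10 times background were single genes rather than whole lists. ANXA10, an annexin of gastric epithelium, read 8913, 9254 and 8083, CTSE, a gastric protease, 4087, 4042 and 3978, and these stood beside MUC5AC in the gastric list, of which 10 of 16 genes were above background (62.5%, all genes 67.0%). Of its 6 defining markers PGC, pepsinogen C (87.6), GAST, gastrin (82.6), and TFF2 (47.9) were weak, and GKN1 (22.6), GKN2 (27.2) and ATP4A (14.1) were at background. APOH, a plasma protein of liver, read 5728, 5576 and 5784 and TTR, the thyroxine carrier, 1505, 638.3 and 1624, whereas FGB, a fibrinogen chain, had a mean of 25.3. From the squamous list, SFN, the cell cycle protein 14-3-3 sigma, read 4991, 6110.5 and 4457 and KRT10 3417, 3012 and 3163, but KRT5 and KRT14 had 5.23 and 13.3. PODXL, a sialomucin of kidney podocytes, read 3751, 6422 and 2532, the water channel AQP5 872.7, 1513 and 1392 and MBP 1299, 1282 and 1371. The remaining members over 10 times background were ENG (715), ESAM (584), PAX8 (619), TBX3 (760.4), TRPS1 (752), STEAP2 (604), TAGLN (499) and TNNI3 (474), markers of vessel, thyroid, breast, prostate or muscle cells.

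Transcription factors of the intestine other than CDX1 and CDX2 were mostly above background. Of 33 measured factors 27 were above background (81.8%, all genes 67.0%) and 7 strong, with a median of 584. EHF, an epithelial ETS factor, read 12139.7, 11400.2 and 10661, TCF7L2, the main Wnt effector of the colon, 8241, 9275 and 7976 and KLF5, a factor of proliferating crypt cells, 7319, 7781 and 8467. FOXA2 and GATA6, regulators of endoderm, had 4147 ± 955 and 3327 ± 264, whereas the related GATA4 and GATA5 were at background at 32.5 and 9.93. HES6, a relative of the NOTCH target HES1, was another gene with a low value on control replicate 2, at 4349.6, 1094 and 4725.

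HOX genes keep a record of position along the body. The measured genes were mainly of the B, C and D clusters, with HOXA2 (257.4, 266.0 and 247.6) the single member of the A cluster. Of 28 measured HOX genes 24 were above background (85.7%, all genes 67.0%) and 10 over 10 times background. HOXB3 read 4128, 3508 and 4229, HOXB7 3698, 3478 and 4407, HOXC6 3502, 2677 and 4344, HOXB6 2426, 2212 and 2988 and HOXB9 2321, 1878 and 3089. The genes at background were HOXD10, HOXD11, HOXD12 and HOXD13, with means from 2.37 to 18.9. HOXB13, a gene of the hindgut and prostate, was weak at 370.0, 219.5 and 413.5.

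Receptors for growth factors and hormones ranged from strong to background. Of 52 measured receptor tyrosine kinases 35 were above background (67.3%), close to the 67.0% over all genes, and 3 were strong. ERBB3, a receptor for neuregulins, read 12368, 12095 and 12342, MET, the receptor for hepatocyte growth factor, 9984, 8805 and 8515 and IGF1R, the receptor for insulin-like growth factors, 4646, 4093 and 5266. ERBB2 had 3192 ± 304, EGFR, the receptor for epidermal growth factor, 1342 ± 217 and INSR, the insulin receptor, 515 ± 65.1, while ERBB4 was at background at 39.2, as were KIT at 3.63 and RET at 6.33. Among 39 nuclear receptors, 26 were above background (66.7%) and none strong, led by NR2F6 (2827, 4810.1 and 3272) and PPARG, a regulator of lipid use in colon epithelium (2522, 4392 and 2359), which were both highest on control replicate 2. The vitamin D receptor VDR had 719 ± 119. NR3C1, the glucocorticoid receptor, and ESR1, an oestrogen receptor, were at background at 16.7, 40.6 and 30.9 and 10.7, 38.1 and 21.8.

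Genes known to be altered in colorectal cancer were above background with 1 exception. Of 26 such genes 25 were above background (96.2%, all genes 67.0%), and RSPO3, a Wnt agonist made by stroma, was at background at 14.8, 20.3 and 6.8. APC, the Wnt suppressor, had 695 ± 199, TGFBR2, a receptor for TGF-beta, 3001 ± 401 and SMAD4, its downstream mediator, 236 ± 38.9. All 10 measured genes of DNA mismatch repair were above background, MSH6, which recognizes mismatches, at 3193 ± 565. A signal does not show whether the encoded protein is intact.

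Genes of cell contacts and of the apical surface were above background throughout. All 39 measured genes of adhesion and junctions and all 23 genes of the brush border were above background on every array (all genes 60.7%). Their medians were 2383 and 1838. ITGB1, an integrin chain, had 16096 ± 1135, TJP1, the tight junction scaffold ZO-1, 8622 ± 791, and JUP and DSP, proteins of desmosomes, 6972 ± 531 and 6898 ± 573. EPS8, an actin-capping protein of microvilli, had 6831 ± 574 and EZR, the membrane linker ezrin, 3188 ± 199, but the microvillus tip cadherins CDHR2 and CDHR5 and the myosin MYO1A were weak, at 94.7, 122 and 64.3. The wider family of claudins, which set the tightness of the junction, was not above background throughout. Of 20 measured claudins 15 were above background, a share not far from the 67.0% of all genes, and 11 were so on all 3 arrays. The highest were CLDN3 (6525), CLDN7 (4669) and CLDN2 (3311), a pore-forming claudin.

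The strongest keratins were those of simple epithelia. Of 44 measured keratins 13 were above background (29.5%, all genes 67.0%) and 4 strong, which were KRT18, KRT8, KRT19 and KRT20, while KRT7 was weak at 219.4, 289.9 and 259.0. Of 19 S100 genes 13 were above background (68.4%), and S100P, a calcium-binding protein of many carcinomas, read 21014, 25308 and 19922, whereas S100A8 and S100A9, the calprotectin subunits of neutrophils, were at background at 5.30 and 7.87. In the CEACAM family, CEACAM1, CEACAM6 (968) and CEACAM5, the carcinoembryonic antigen (427), were over 10 times background. Of 11 aquaporins 7 were above background (63.6%), a share that like that of the S100 genes lay near the 67.0% of all genes, with AQP3, which also carries glycerol, the highest at 3518, 4618 and 3521.

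Mesenchymal genes were mostly at background. Of 19 genes of epithelial-mesenchymal transition 6 were above background (31.6%, all genes 67.0%), with S100A4 (1175, 2392 and 1328) and TGFBI, a matrix protein (1031, 1155 and 1183), the highest. VIM, vimentin, was weak at 150.6, 133.1 and 96.1, and the repressors of E-cadherin ZEB1, ZEB2 and SNAI2 were at background at 30.3, 19.1 and 6.97. Of 43 collagens 16 were above background (37.2%), none of them strong, and the highest were COL9A3 (3121 ± 221), a cartilage collagen, and COL27A1 (2420.1 ± 446).

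Genes of DNA replication and cell division were high as a group. All 40 measured genes of proliferation and mitosis were above background on every array (all genes 60.7%). Of these, 39 were over 10 times background (all genes 41.9%), and the median was 2252. TYMS, thymidylate synthase, read 7951, 10022 and 7055, PCNA, the replication clamp, 7167, 9095 and 6672, TOP2A, topoisomerase II, 6647, 7363 and 5091, and MKI67, the proliferation antigen Ki-67, 1446, 1942 and 1365. Of these 40 genes 39 were highest on control replicate 2, CDK4 among them by a small margin (7951, 8325 and 8104).

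Genes of housekeeping complexes were high with few exceptions. Over all genes, 67.0% were above background and 6.65% strong. The 7 genes of the TCP1 ring chaperonin, which folds actin and tubulin, were all strong, from 8534 for CCT8 to 14241 for CCT4. All 32 genes of respiratory complex I, the entry point of electrons into the chain, were above background and 21 were strong. Of 34 proteasome genes 33 were above background and 19 strong, and of 19 ATP synthase genes 18 and 12. The genes at background in these sets were PSMA8, a testis form of a proteasome subunit (25.3), and ATP5MF (26.5). Among 59 ribosomal protein genes, 57 were above background and 49 strong, and those at background were RPL3L and RPL39L, forms that are restricted to certain tissues. RPLP2, RPL36A and RPL7, although parts of the common ribosome, were weak at 166, 146 and 105. Probe sets with several gene symbols were not used, and _x_at sets only where no other existed. Whether the low values of these genes and of ATP5MF reflect little transcript or the probe set used was not tested. Many probe sets of housekeeping complexes can bind processed pseudogenes or related genes. Without probe sets of the _s_at and _x_at kinds, 31 of the 59 ribosomal protein genes were above background. Genes with no other kind of probe set dropped out there as not measured, so the rest need not be at background.

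**Figure D3:**
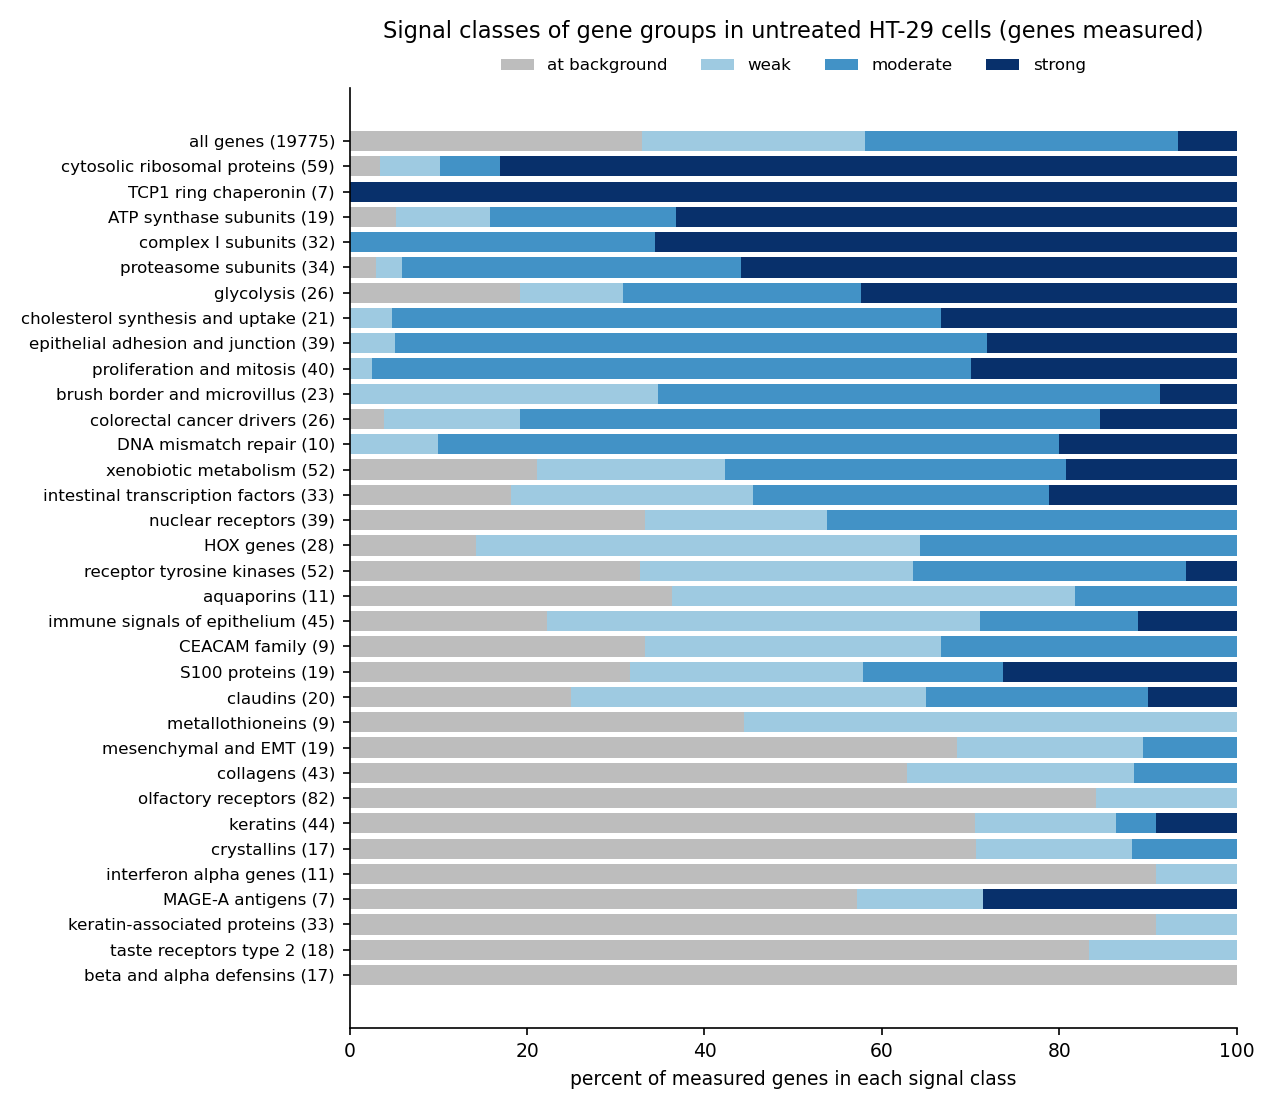
Share of the measured genes (percent, number in parentheses) of each gene group in the 4 signal classes, ordered by median signal below the bar for all genes. Cytosolic ribosomal proteins and the TCP1 ring chaperonin are mostly or wholly strong, and of 17 defensins 0 are above background.

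Genes of energy and lipid metabolism were mostly high. Of 26 glycolytic genes 21 were above background (80.8%, all genes 67.0%) and 11 strong. LDHA read 24198, 44055 and 23678, ALDOA, aldolase, 23703, 36550.5 and 21580.2, PGK1 17688, 29835 and 16450.3 and ENO1, enolase, 14909, 23647 and 13303. All 21 were higher on control replicate 2 than the mean of the other arrays, and 19 were higher there than on either. Forms of other tissues, such as PKLR of liver (40.2) and SLC2A2, a glucose transporter of liver and islets (30.7), were at background. All 21 genes of cholesterol synthesis and uptake were above background, with SQLE, squalene epoxidase, at 16540.1 ± 1797 and HMGCS1, an early enzyme of the pathway, at 4093 ± 389.

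Genes that handle drugs and oxidants were high with gaps. Of 52 measured genes 41 were above background (78.8%, all genes 67.0%) and 10 strong, led by GPX2, the glutathione peroxidase of gut epithelium (19505, 26124 and 17858), GSTP1, a glutathione transferase (12738, 18179.7 and 11642), NQO1, a quinone reductase (9339, 13287 and 8423), and ALDH1A1, a retinal-oxidizing enzyme (8621, 13000.1 and 6315). The 4 were highest on control replicate 2, as were 31 of the 41. CYP1A1, the enzyme induced by aryl hydrocarbons, was at background at 5.9, 18.1 and 3.9, and the drug pump ABCB1 had 38.1. Metallothioneins, which bind zinc and copper, had a median of 60.2 against 196 over all genes, and 0 were over 10 times background. Of 9 measured, 5 were above background (55.6%), a share not far from the 67.0% of all genes. All 5 were highest on control replicate 2, as in MT1E (46.0, 627.0 and 39.9) and MT2A (257.3, 563.4 and 201.9). Members of this family share much of their sequence, so their signals may not be separate.

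Immune genes spanned all signal classes. Of 45 measured genes 35 were above background (77.8%, all genes 67.0%), 13 over 10 times and 5 strong, with a median of 108. B2M, the light chain of HLA class I, had 24665 ± 1889, and HLA-C and HLA-B had 7439.7 ± 540.4 and 5644 ± 905, while HLA-DRA, a class II chain, was at background at 4.1, 3.6 and 8.0. CD46, CD59 and CD55, which guard cells against complement, had 9931, 7319 and 2409. The cytokine genes TNF and IL6 were at background at 18.4 and 34.9, and the chemokine CXCL8 was weak at 202.5, 84.4 and 73.2. LCN2, an iron-trapping antibacterial protein, read 2059, 5195 and 2331.

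Gene families of other organs measured how low the signal of silent genes lay. Of 82 olfactory receptors 13 were above background (15.9%, all genes 67.0%), of 33 keratin-associated proteins of hair 3 (9.09%), of 18 bitter taste receptors 3 (16.7%), of 11 interferon alpha genes 1 (9.09%) and of 17 defensins 0. The medians of these families ran from 8.47 for defensins to 22.8 for olfactory receptors. Over the 7 families of this kind, crystallins and MAGE-A antigens included, 28 of 185 genes were above background (15.1%). The highest olfactory receptor was OR51E1, which is also known outside the nose, at 205.1, 63.0 and 332.6. The crystallins over 10 times background, CRYBG1 (1789) and CRYBG3 (697), are named for their fold and are not specific to the lens, and CRYAA of the lens had 10.6. MAGE-A antigens, germ cell genes found in many tumours, were the exception, with MAGEA6 at 13368, 14384 and 13128, MAGEA12 at 5897, 5785 and 5843 and the other 5 at 298 or less. Both high values came from _x_at probe sets, so the near-identical members of this family cannot be told apart.

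The spread between arrays narrowed as signal rose. The median CV was 66.1% for genes at background, 23.7% for weak, 10.9% for moderate and 8.91% for strong genes. The highest of the 3 values was 2-fold or more above the lowest in 81.3% of genes at background, in 29.4% of weak genes, in 1.82% of moderate and in 1.14% of strong genes. Among genes at or over 10 times background, the steadiest were MCTS1, a translation factor (4180.5, 4185 and 4177), RBIS, a ribosome assembly protein (3626, 3624 and 3631), and COG2, a Golgi protein (1789.8, 1792 and 1787). The median CV of genes above background, taken over the 2 arrays left, was 9.28% without control replicate 2, and 12.8% and 12.4% without replicates 1 and 3.

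In the 12 genes with the largest CV, control replicate 2 was the array that lay apart. The first was COXFA4L2, formerly NDUFA4L2, a mitochondrial protein induced by low oxygen, at 88.0, 2305 and 107.3. EGLN3, an oxygen sensor that marks HIF for degradation, read 229.2, 1019 and 235.3, NDRG1, a stress-induced gene, 3239.6, 12378 and 3631, CLIC3, a chloride channel protein, 419.1, 1596 and 434.1 and ALDH3A1, an aldehyde dehydrogenase, 872.8, 3046 and 773.4. In these 5 the values of control replicates 1 and 3 lay close together and well below replicate 2. ABCG2, a drug exporter, APOL1, NUPR1, a stress-response protein, CRABP2, a retinoic acid carrier, and SLCO1B3, an organic anion transporter, went the same way, with CVs from 65.5% to 78.8%. ANXA13, an annexin of gut epithelium, and FCGBP went the other way, ANXA13 at 1633, 227.7 and 1993.

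The 24 genes at least 2-fold above both other arrays on control replicate 2 included several that are known to be induced by low oxygen. Besides COXFA4L2, EGLN3 and NDRG1 these were PLOD2 and P4HA1, which modify collagen (3612, 9696 and 3552 and 2269, 5764 and 2110.1), PDK1, which keeps pyruvate out of mitochondria (974.1, 2613 and 896.6), BHLHE40, a transcriptional repressor (1251, 2547 and 1098), and ENO2, a second enolase (816.8, 1831 and 846.4). Others were CKB, a creatine kinase (4331, 10219 and 4431), LCN2, GPX3, a secreted glutathione peroxidase (894.7, 1953 and 887.6), and SLC30A1, a zinc exporter that responds to zinc as metallothioneins do (497.0, 1224 and 492.8). The genes were chosen for this difference, and naming the low-oxygen group came after their values were seen.

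Among the 34 genes at least 2-fold below both other arrays on control replicate 2, the examples given here were picked after their values were seen. REG4, ATOH1, SPINK4 and FCGBP of the goblet list and SUCNR1 of the tuft list were among them, as were HES6, TTR and SPP1, the secreted protein osteopontin (2822, 1047 and 2151). TUBA1A, an alpha-tubulin, read 10378, 3149 and 11262, LINC00261, a noncoding RNA next to FOXA2, 9881, 3615 and 11259, SPRY2, an inhibitor of receptor tyrosine kinase signals, 5489, 2677 and 5852, PROX1, a homeobox factor, 879.7, 261.4 and 880.5 and MYCL, a relative of MYC, 1344, 319.0 and 1427. In these 5 the values of control replicates 1 and 3 differed by less than either did from replicate 2.

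The medians of several lists were shifted on that array. Relative to the mean of the other arrays, control replicate 2 lay higher by a median log2 of 2.01 for the 5 metallothioneins above background, 0.75 for 21 glycolytic genes, 0.44 for 40 proliferation genes and 0.32 for 41 xenobiotic genes, against -0.02 for all 13256 genes above background. The same median was -0.21 for 30 goblet genes and -0.25 for 24 HOX genes, with members on both sides, as 10 goblet and 8 HOX genes were highest and 15 and 14 lowest on that array. Over all genes above background, 4712 were highest and 5070 lowest on control replicate 2. The 3' and 5' probe sets of the 18S control were lowest and the 30 highest genes were at their highest on this array. The middle 18S set was lowest on control replicate 3 instead. What part these features had in the shifts was not tested. Whether culture density, medium or handling differed for this array is not stated in the sources used here.

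**Figure D4:**
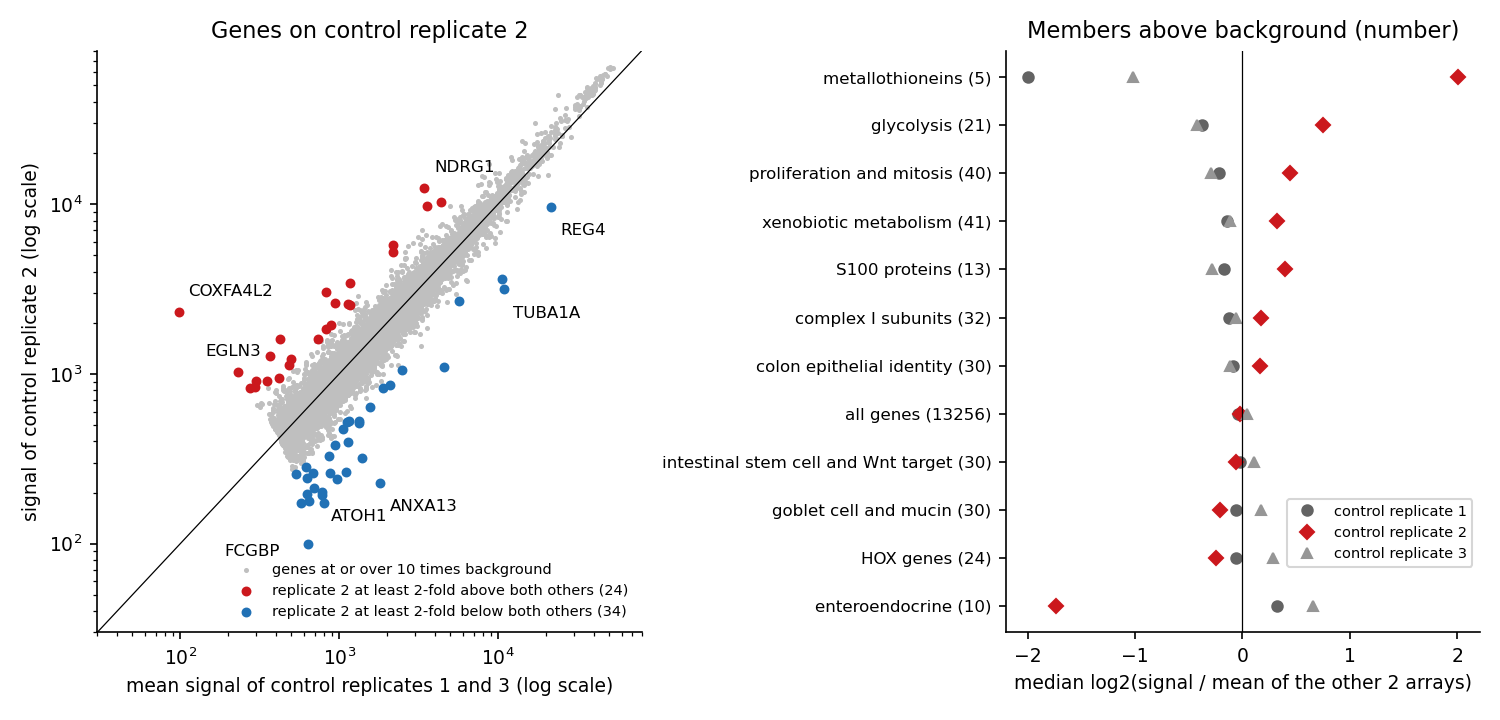
Left: signal of control replicate 2 against the mean of control replicates 1 and 3 (both log scales) for genes at or over 10 times background, with the 24 genes at least 2-fold above both others in red and the 34 below both in blue. Right: for each gene group, the median log2 ratio of each array to the mean of the other 2, over members above background (number in parentheses), where metallothioneins lie at 2.01 and enteroendocrine genes at -1.74 for control replicate 2.

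The core letters of the binding motif of HIF, the transcription factor of the low-oxygen response, are ACGTG. Among the 13 genes above both others on control replicate 2 that have a single promoter window, 6 held ACGTG on either strand (46.2%), against 7 of 21 of the genes below (33.3%) and 24.2% of all windows. The share was 19.4% for genes at background, 29.1% for moderate and 34.4% for strong genes. Both groups hold moderate and strong genes only, so the last 2 shares are the nearer comparison. A match is a stretch of letters and not a site, and the gene numbers are small. The stretches are shown because these genes were higher together on 1 array, in the direction of the gene, with ACGTG or its reverse complement CACGT in capitals.
PLOD2 (chr3:146161367-146161396, minus strand): cgtgagcctccaCACGTagccgcaggcagc
P4HA1 (chr10:73096935-73096964, minus strand): tgtgatcgagctCACGTagcgagggctgca
CRABP2 (chr1:156705887-156705916, minus strand): ggaacaggcgagACGTGaggaactcgggtg
BHLHE40 (chr3:4979187-4979209, plus strand): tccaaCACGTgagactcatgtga
GPX3 (chr5:151020372-151020401, plus strand): gggaccgcctccCACGTccacagggacctg
ENO2 (chr12:6914450-6914479, plus strand): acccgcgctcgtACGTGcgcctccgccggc

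Promoter composition differed between silent and transcribed genes. The median window held 8 CpG dinucleotides for genes at background, 22 for weak genes and 28 for both moderate and strong genes, and the median GC content was 55.7%, 63.3%, 66.3% and 65.0%. The GC box letters GGGCGG stood on either strand in 37.7%, 60.3%, 75.3% and 73.3% of windows. The GC box letters themselves hold a CpG. The TATA box letters TATAAA stood on either strand in 16.1%, 8.72%, 4.04% and 7.65%, so that strong genes held them more often than moderate ones in these windows. At the far ends, TATAAA stood in 76.7% of 30 keratin-associated protein genes and in 36.4% of 55 olfactory receptor genes, while GGGCGG stood in 0 and 1 of them. Colon epithelial genes, many of them strong, had a median of 5 CpG in 16 windows and goblet genes of 6 in 21 windows, both nearer to the value for genes at background.

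**Figure D5:**
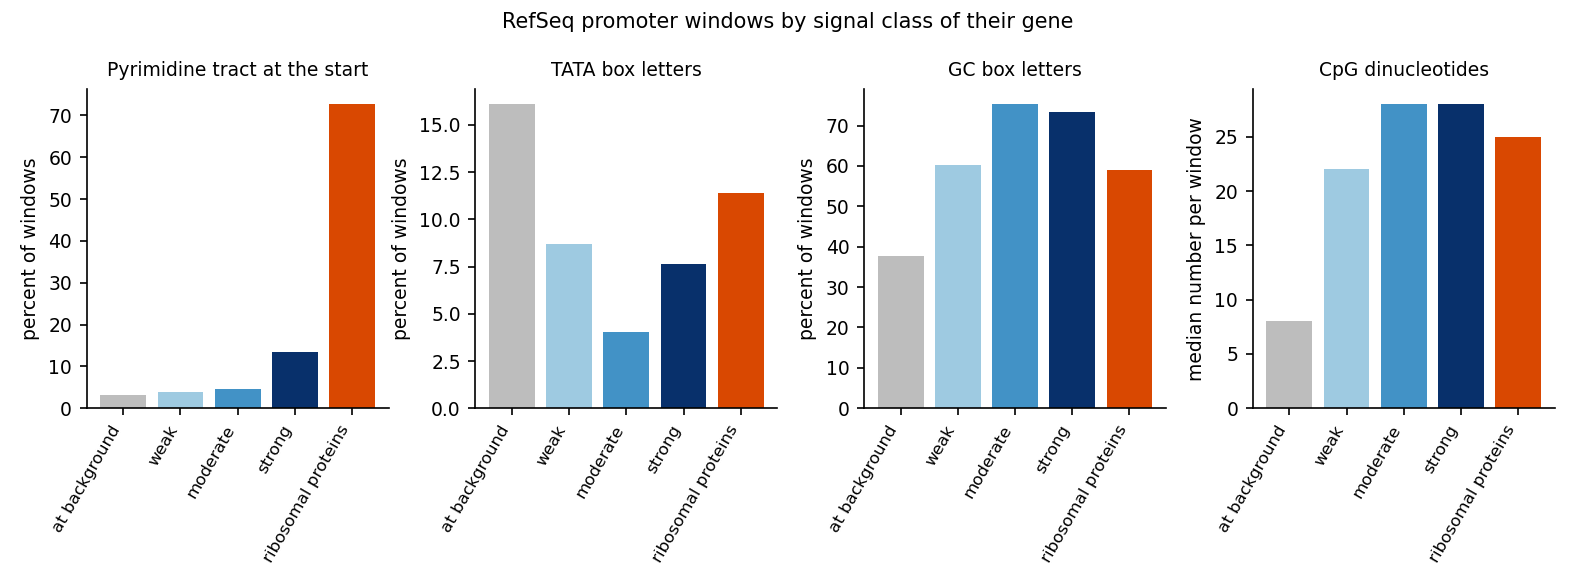
Share of RefSeq promoter windows with a pyrimidine tract at the start, TATAAA or GGGCGG, and the median number of CpG dinucleotides, for genes at background, weak, moderate and strong and for cytosolic ribosomal proteins (44 windows). All bars start at 0, and the tract reaches 72.7% in ribosomal protein genes against 3.10% in genes at background.

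Signal was spread over all chromosomes with modest differences. The share of genes above background ran from 56.6% of 242 genes on chromosome 21 and 58.4% of 303 on chromosome 18 to 71.8% of 1126 on chromosome 17 and 74.2% of 825 on chromosome 16. Genes over 100 times background made up 11.3% of the 612 genes of chromosome 15, the largest share of any nuclear chromosome, and 4.58% of the 611 of chromosome 14. All 7 measured mitochondrial genes were above background and 5 were strong, with a median of 46283. On control replicate 3 the mitochondrial ND6, which is transcribed from the opposite strand to the other protein genes, was lower, at 2715, 3024 and 1072.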

How the data were processed

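Gene expression was measured in HT-29 cells on 3 control arrays of a one-colour Affymetrix platform, and the intensity values were used as the authors deposited them, on a linear scale with 1 value per probe set and array. The processing notes of the submitters name the affy package, and its version, the background correction and the probe summary are not given in the sources used here. In every column of the table the mean of the probe sets left after removing the lowest and highest 2% was 500.0, so the arrays had been scaled to a common level. The labels give 3 µg of total RNA an array and a Mini extraction kit, while the methods describe a Micro kit and a smaller input.

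Of 54675 probe sets, 41097 carried 1 gene symbol in the platform annotation, 1801 several and 11777 none, and those with a single symbol gave 19775 genes. Each gene was read from the probe set with the highest mean control signal, with _x_at probe sets only where no other existed. The background level was the highest TrpnX signal on a control array. Means, SDs, ranks and CVs were computed over the 3 arrays in Python 3.11.15 with pandas 2.3.3 and numpy 2.4.6, and figures were drawn with matplotlib 3.10.9. An array was said to stand apart for a gene when it lay at least 2-fold above or below both others, a step tested on simulated data. All results are descriptions with no test, and the number of arrays limits their precision.

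Gene lists (35) and families (20) held 960 entries, of which 99 were not analysed here. The genes and lists were chosen with earlier results of these data known, so their counts, to be read against the 67.0% of all genes above background, support nothing by themselves. Named were the 30 highest genes, the 30 highest outside translation, the defining markers and the 4 highest members of each list, members of lists for other cell types over 10 times background, the 12 largest and 6 smallest CVs among genes at or over 10 times background, and genes next to the class limits. Other list members, the genes that set control replicate 2 apart and those of the chromosome comparison were named after their values were seen. Promoter windows came from RefSeq on GRCh38.p14. Alternatives covered normalization, the background level, the choice of probe set, the median of the arrays and leaving out each array. Treated arrays were not used, and no comparison of the authors was used.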

Additional observations from a re-analysis of the deposited data

How the results depend on the processing

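Of 72 recomputed summary values, 66 moved by less than 1.5 times or by less than their spread and 6 moved by more. The number of genes over 100 times background, 1315 in the report, was 493 with 2 times the background level, 723 with the 95th percentile of the olfactory receptor genes (63.3) as the level, 764 with the median over all probe sets of a gene, and 658 without _s_at and _x_at probe sets. Without _s_at and _x_at probe sets, 34 of the 100 highest genes kept their place among the first 100. That setting kept 17098 genes, and genes with no other kind of probe set dropped out as not measured. The median CV of genes above background ranged from 9.28% without control replicate 2 to 12.8% without control replicate 1, against 13.6% with all arrays. The number of genes above background ran from 10665 of 17098 genes to 14349 over all alternatives. Of 660 recomputed counts of list members above background 59 moved by more than 1.5 times, in 28 of 55 lists. Of these lists, 21 had fewer than 10 members above background. MAGE-A antigens had 0 members above background without _s_at and _x_at probe sets, but MAGEA6 and MAGEA12, read by _x_at probe sets alone, were not measured there. Quantile normalization, scaling to a common median, taking the median over all probe sets and leaving out _s_at and _x_at probe sets were tried for the genes that set control replicate 2 apart after the data had been seen, and the count of 34 genes below both others became 22 with the median over all probe sets, while the other counts stayed within 1.5 times. No paired analysis was possible because the results come from no test. Genes near the background level are limited by the probe sets, since 3236 genes had arrays on both sides of it.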
